A study of Canis lupus familiaris with 34 samples.

Results

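The 6 snap-frozen primary osteosarcomas of this canine series were divided by their transcript level of bone sialoprotein (IBSP), and the genes that separated the resulting 3 and 3 tumours were described. The tissues were 6 of the 34 arrays, and the remaining arrays were 25 of lines grown from primary tumours and 3 of lines grown from metastases. Members were chosen by the measured IBSP level itself, above or below 11.5 on the log2 scale of GCRMA intensity, the background-corrected and normalised brightness of a probe set. Tissues 1, 3 and 6 lay above this level and are called IBSP-high, and tissues 2, 4 and 5 lay below it and are called IBSP-low. Because the same arrays chose the groups and gave all other values, every difference between IBSP-high and IBSP-low tissues is given as a description, with no test.

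Each tissue came from 1 dog. Among the IBSP-high tumours, tissue 1 was from a Great Pyrenees (sex label F, age label 7), tissue 3 from a Golden Retriever (FS, 2.7, treatment label SOC) and tissue 6 from a Golden Retriever (FS, 2.67). Among the IBSP-low tumours, tissue 2 was from a Belgian tervuren (MC, 6.1, SOC), tissue 4 from a Borzoi (F, 11.91, SOC) and tissue 5 from a Golden Retriever (FS, 6.72). The labels do not spell out SOC or give the unit of age, and the arrays of tissues 1, 5 and 6 carried no treatment label, although 1 line array from the dog of tissue 5 was labelled SOC. Survival labels, also without a unit, were 33.8, 3.48 and 1 in tissues 1, 3 and 6 and 4, 1.87 and 16 in tissues 2, 4 and 5. The only male was in the IBSP-low group, and tissues 3 and 6 shared breed and sex and were close in age, so IBSP level cannot be told apart from sex, breed or age in 6 dogs. The dogs of tissues 5 and 6 also gave a primary tumour line. All tissues are whole tumour pieces that can hold tumour, stromal, vascular and immune cells, so fewer cells of a type and less RNA per cell cannot be told apart.

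Bone sialoprotein is an acidic glycoprotein that osteoblasts and hypertrophic chondrocytes secrete into mineralising matrix, where it binds hydroxyapatite, collagen and cell-surface integrins. Osteoblasts lay down type I collagen and add alkaline phosphatase (ALPL), osteopontin (SPP1) and osteocalcin (BGLAP) as the matrix matures and mineralises. Osteosarcoma is defined by tumour cells that form osteoid, and the amount of osteoid, fibrous matrix, cartilage and vessels varies between tumours.

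The tissue arrays were alike in overall signal, with median intensities of 8.31 to 8.71 on the linear scale. RNA breakdown widens the difference of actin's 3′ over its 5′ probe set, and it was 2.73, 4.61 and 1.27 log2 units in tissues 1, 3 and 6 and 2.72, 1.76 and 2.44 in tissues 2, 4 and 5. The IBSP-high group thus held both the highest and the lowest value, and the part of RNA quality in the differences was not tested. Over the 7849 genes measured, arrays correlated at 0.859 to 0.925 within the IBSP-high group, at 0.879 to 0.895 within the IBSP-low group and at 0.836 to 0.919 between them. Tissue 1 correlated more closely with tissues 2 and 4 of the other group (0.919 and 0.915) than with tissues 3 and 6 of its own (0.896 and 0.859). All titles of the tissues carried the same prefix, so no title prefix divided the groups.

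IBSP stood at 11.99, 14.26 and 14.50 in tissues 1, 3 and 6 and at 6.67, 11.14 and 8.84 in tissues 2, 4 and 5. Tissue 4 was just below the dividing level and tissue 1 just above it, with 0.85 log2 units between them. The tissues therefore spread over a range rather than forming 2 tight groups, and each group's values were 13.58 ± 1.39 and 8.88 ± 2.23 (SD, n = 3 each). Only 1 probe set on the array carried the IBSP symbol. In 24 primary lines, after 2 arrays of the dog of tissue 5 were averaged, IBSP was 2.86 ± 0.61 (SD), with 0 of 24 lines over log2 5. The lines from the dogs of tissues 5 and 6 were at 2.67 and 2.44, so a tumour with little IBSP and one with much of it gave lines near the bottom of the scale alike.

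A gene was called separated where all 3 tissues of one group lay above all 3 of the other and the group means were at least 1 log2 unit (2-fold) apart. By this rule 162 genes (2.06% of 7849) were higher in IBSP-high tissues and 208 (2.65%) were higher in IBSP-low tissues. Without the minimum difference, 472 genes (6.01%) and 438 genes (5.58%) had groups that did not overlap. The median difference over all genes, IBSP-high minus IBSP-low, was 0.05 log2 units. All gene lists below were chosen with earlier results of these data known, so their counts are descriptions too. Of the 162 genes, 38 were below log2 5 in all IBSP-low tissues, and 13 passed the filter on dim probe sets only through the IBSP-high tissues. For the 208 genes these numbers were 50 and 12. Tissue 1 was the member closest to the other group most often: it was the lowest IBSP-high tissue for 94 of the 162 genes, and the highest IBSP-high tissue for 129 of the 208 genes. Leaving out a tissue of either group makes full separation easier to reach. The counts became 647 and 653 without tissue 1, 272 and 404 without tissue 2, 391 and 354 without tissue 4, and 334 and 375 without tissue 5.

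Among the bone matrix and osteoblast genes, IBSP alone separated the groups. Of 30 listed genes 15 were measured, 1 was called higher in IBSP-high tissues (IBSP, which chose the groups) and 0 in IBSP-low tissues. Over all genes these shares were 2.06% and 2.65%. Over the 14 members other than IBSP the median difference was 0.89 log2 units against 0.05 over all genes, and 12 of them had the higher mean in IBSP-high tissues. Tissue 2 was the lowest tissue for 10 of the 15 members, and without it the median over the 14 was 0.21, with 8 higher means.

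ALPL, the phosphatase that frees phosphate for mineral, was 8.68, 11.46 and 12.41 in tissues 1, 3 and 6 and 7.29, 11.03 and 9.64 in tissues 2, 4 and 5. PTH1R, the parathyroid hormone receptor of osteoblasts, was 7.66, 11.32 and 11.43 against 6.42, 10.33 and 10.03. Both genes had their highest levels in tissues 3 and 6 and overlapped between the groups, with tissue 1 below tissues 4 and 5. SPP1 was 11.79, 13.89 and 13.51 against 11.65, 11.10 and 12.84, again with tissue 1 among the IBSP-low values. BGLAP, the late osteoblast product osteocalcin, was 2.14, 5.11 and 6.61 against 2.62, 3.89 and 4.91. Osteocalcin thus passed log2 5 only in tissues 3 and 6, and tissue 1 had the lowest value of all. When tissue 1 was left out, SPP1, ALPL, PTH1R and BGLAP met the rule for separated genes, 4 of the 14 members other than IBSP, where 8.24% of all genes did so.

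MMP13, the collagenase of osteoblasts and hypertrophic chondrocytes, was 13.96, 13.56 and 13.18 against 10.40, 11.53 and 13.82, with tissue 5 the one IBSP-low value inside the upper range. Osteomodulin (OMD), a keratan sulphate proteoglycan of bone, was highest in tissue 6 at 13.75 and lowest in tissue 2 at 9.36. The WNT antagonist WIF1 lay between 10.68 and 13.20 in all tissues but tissue 2, where it was 7.51. ENPP1, which makes the mineral inhibitor pyrophosphate, was 11.15 in tissue 1 and 4.71 to 8.82 in the others. The transcription factor DLX5 showed no such order, with 9.39, 9.77 and 9.63 in IBSP-high tissues and 6.39, 10.69 and 10.55 in IBSP-low tissues. RUNX2, the master regulator of osteoblasts, was dim throughout, at 4.26 to 5.38.

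The collagenous base of bone overlapped between the groups. The 6 values of COL1A1, a chain of type I collagen, spanned 13.56 to 14.30, with a group difference of 0.01. COL1A2 differed by -0.10, or by -0.87 when the probe set of widest interquartile range stood for it, and SPARC (osteonectin), a collagen-binding glycoprotein, by 0.04. The highest values of all 3 genes were in tissue 2, the tissue with the least IBSP. Of the 15 listed bone genes that were not measured, 10 had probe sets that failed the filter. The osteocyte gene DMP1 was one of these, as each of its 2 probe sets passed log2 5 on 1 array only, that of tissue 1. They read 9.26 and 6.80 there and at most 4.57 and 4.05 in the other tissues.

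**Figure D1:**
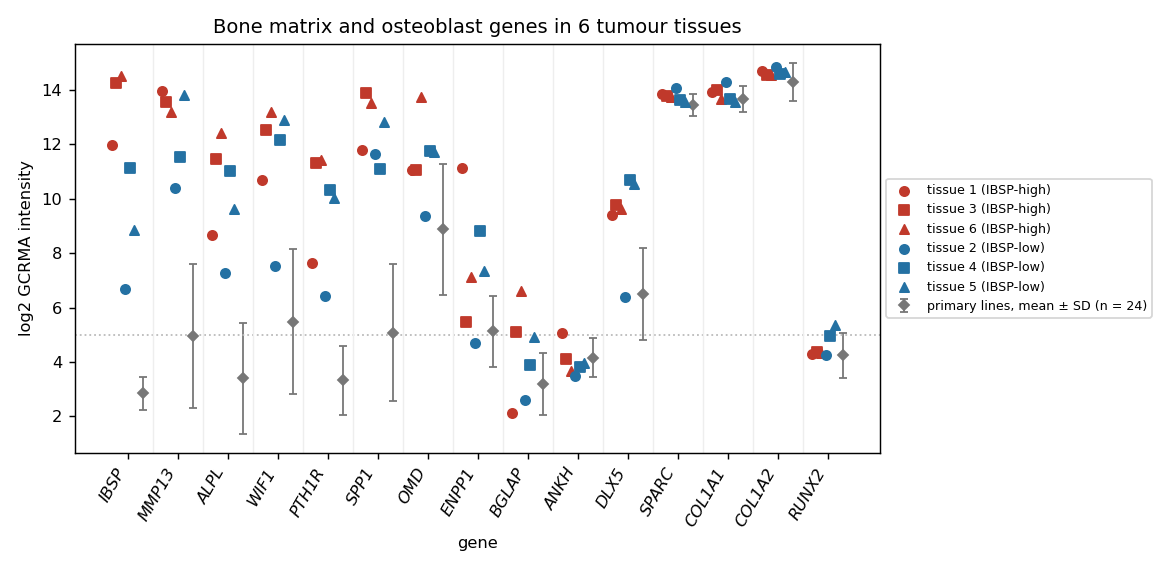
Levels of 15 bone matrix and osteoblast genes (horizontal axis) as log2 GCRMA intensity (vertical axis) in each tissue, red for IBSP-high and blue for IBSP-low, with the mean and SD of 24 primary lines as grey diamonds and the filter level of log2 5 as a dotted line. IBSP is the one gene whose red and blue points do not overlap, and tissue 2 (blue circles) is lowest for 10 of the 15 genes.

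Osteoclasts resorb bone, and 9 of 17 of their listed genes were measured. CA2, the carbonic anhydrase that supplies protons for resorption, was the 1 called member, against 2.06% of all genes. It was 10.11, 10.63 and 10.23 in IBSP-high tissues against 8.04, 8.75 and 8.12 in IBSP-low tissues. The difference was 2.02 log2 units (4.06-fold), and the 3 CA2 probe sets that passed the filter were all called in this direction. In primary lines CA2 was 4.48 ± 4.10 (SD), over log2 5 in 5 of 24 and up to 13.87, above every tissue. Cultured cells can thus hold CA2 too, and its cell of origin in the tissues was not tested. The other resorption genes overlapped between the groups, although 6 of the 9 members, CA2 included, had the higher mean in IBSP-high tissues. The gelatinase MMP9, abundant in osteoclasts, was 13.79, 12.17 and 13.49 against 11.06, 10.04 and 12.96, a difference of 1.80 with tissue 5 inside the upper range. ACP5, the tartrate-resistant acid phosphatase, was 9.85, 12.17 and 13.24 against 11.67, 10.51 and 13.17, and cathepsin K (CTSK) differed by -0.17. TNFSF11 (RANKL), the ligand that drives osteoclast formation, was 9.27, 3.60 and 7.06 against 2.70, 4.30 and 3.38, high in tissues 1 and 6 and not in tissue 3. ATP6V0D2, a proton pump subunit, was above 9.5 in tissues 3, 5 and 6 and below 7 in tissues 1, 2 and 4. The list's median difference was 0.92, and it was 0.48 without tissue 3, 0.11 without tissue 4, 0.34 without tissue 6, 0.52 without tissue 2, 0.30 with no filter and 0.47 with values under log2 5 set to that level.

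Vessel genes were mostly highest in tissue 1 and did not separate the groups. Of 16 measured endothelial genes 0 were called in either direction, which is near the shares of 2.06% and 2.65% over all genes. Of the 16 genes, 14 were highest in tissue 1. The mean was higher in IBSP-high tissues for 15 of the 16, and for 5 when tissue 1 was left out. PECAM1, the endothelial adhesion molecule CD31, was 14.06, 11.24 and 10.02 in tissues 1, 3 and 6 and 12.72, 9.96 and 10.62 in tissues 2, 4 and 5. The VEGF receptor KDR was 12.51, 9.35 and 8.68 against 10.95, 8.33 and 9.23, and von Willebrand factor (VWF) was 10.92, 7.30 and 7.32 against 10.99, 5.94 and 6.47. Tissues 1 and 2 stood above the other tissues for all 3 genes, and these tissues lie on opposite sides of the IBSP division. The list's median difference was 0.75 with all tissues and -0.41 without tissue 1. Without tissue 2, which leaves tissues 4 and 5 as the lower group, 6 of 16 were separated, where 3.47% of all genes were: CLEC14A, ECSCR, RAMP2, EGFL7, VWF and LYVE1.

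Of the genes listed for mural cells, the pericytes and smooth muscle around vessels, 11 were measured, with a median of -0.53. Among them 0 were called in either direction, against 2.06% and 2.65% of all genes. The members went different ways. MCAM and COX4I2, found in pericytes, had higher means in IBSP-high tissues (differences of 1.82 and 2.22), and both were highest in tissue 1. The contractile genes ACTA2, TAGLN, CNN1 and ACTG2 had lower means there, by -1.67 to -2.49. In primary lines these contractile genes averaged 12.42, 13.25, 7.52 and 8.14, and MCAM and COX4I2 averaged 6.17 and 3.71. The contractile genes were thus also held by cultured cells, and their cell of origin in the tissues was not tested. TAGLN was 11.94, 9.09 and 8.53 against 12.74, 10.96 and 12.49, so tissues 3 and 6 were the low ones and tissue 1 was within the IBSP-low range. Without tissue 1, 4 of 11 members were called higher in IBSP-low tissues, as were 8.32% of all genes.

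Fibroblast and interstitial matrix genes mostly had lower means in IBSP-high tissues, without following the IBSP level tissue by tissue. The list mean was 11.53, 10.12 and 9.70 in tissues 2, 4 and 5. It was 10.64 in tissue 1, and 8.77 and 9.28 in tissues 3 and 6. In primary lines it was 9.73, so the cultured cells held many of these genes too, and their cell of origin in the tissues was not tested. Of 37 listed genes 32 were measured, 6 were called higher in IBSP-low tissues and 0 in IBSP-high tissues, against 2.65% and 2.06% over all genes. The median difference was -0.87, and 26 of 32 members had the lower mean in IBSP-high tissues. Tissue 2 was the highest tissue for 23 of the 32. The called members were FMOD, COL6A1, FBLN1, THY1, SFRP2 and MMP2, which averaged 2.81, 11.13, 6.58, 9.25, 12.33 and 10.89 in primary lines. Without tissue 2 the median was -0.32, and 12 of 32 members had the higher mean in IBSP-high tissues. That setting gave 6 calls in the IBSP-low direction and 2 in the other, against 5.15% and 3.47% of all genes. Without tissue 1 there were 12 calls of 32 in the IBSP-low direction, against 8.32% of all genes. Without tissue 5 there were 11, against 4.78%. Taking for each gene the probe set of widest interquartile range gave 2 calls of 32: FBLN1, THY1, SFRP2 and MMP2 overlapped, and FBLN1 differed by -0.33. FBLN1 also lost its call without tissue 6 (-0.76) and SFRP2 without tissue 3 (-0.85).

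COL6A1, a chain of the beaded filament collagen VI, was 10.86, 9.01 and 10.30 in IBSP-high tissues and 12.41, 12.26 and 11.69 in IBSP-low tissues. Its difference was -2.06 log2 units, with 0.82 between the groups. FBLN1, a glycoprotein of basement membranes and elastic fibres, was 11.92, 11.54 and 10.12 against 12.36, 12.87 and 12.25. THY1, a surface glycoprotein of fibroblasts, was 8.06, 6.92 and 8.77 against 10.94, 9.15 and 9.06. Fibromodulin (FMOD), a small proteoglycan that binds collagen fibrils, was 3.34, 1.86 and 2.34 against 4.37, 5.87 and 4.86. Only tissue 4 brought FMOD over log2 5, so its difference lies at low signal and was -0.29 with values under log2 5 set to that level. MMP2, a gelatinase, and SFRP2, a secreted WNT modulator, were separated by 0.12 log2 units or less, and MMP2 overlapped after quantile normalization or median centring.

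Not all stromal genes took this direction. DCN, LUM and COL3A1, the main proteoglycans and the fibrillar collagen of loose connective tissue, differed by 0.27, 0.23 and 0.05. COL3A1 was at -0.41 when the probe set of widest interquartile range stood for it. Periostin (POSTN) was 13.03, 10.88 and 13.52 against 13.09, 11.87 and 7.28, low in tissue 5 alone. Tenascin C (TNC) was 5.79 in tissue 4 and between 10.48 and 11.93 in the others. COL14A1, which associates with collagen fibrils, was 11.12, 5.45 and 4.63 against 9.34, 10.15 and 9.57, and THBS2 and FBLN2 showed the same arrangement, with tissue 1 beside the IBSP-low tissues.

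The innate immune genes did not separate the groups as a whole. Of 19 measured monocyte and macrophage genes 0 were called in either direction, which is near the shares of 2.06% and 2.65% over all genes. The median difference was -0.35. Tissue 6 was lowest for 11 and tissue 5 was highest for 10. The scavenger receptor CD163 was 10.15, 10.31 and 6.15 in IBSP-high tissues against 8.88, 7.75 and 9.48 in IBSP-low tissues. The complement gene C1QA was 10.55, 9.79 and 8.24 against 9.63, 9.68 and 11.47. The list's median turned positive without tissue 5 (0.10) or without tissue 6 (0.33).

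MHC class II genes, which present antigen to helper T cells, had lower means in IBSP-high tissues for 9 of 9 measured members, with a median of -1.13. The invariant chain CD74 was the 1 called member, against 2.65% of all genes. It was 10.84, 11.06 and 8.59 against 11.87, 11.09 and 13.48, with 0.04 log2 units between the groups. This call was lost with arrays centred on their medians, and 1 of the 3 CD74 probe sets met the rule. Tissue 5 was highest and tissue 6 lowest for 8 of the 9, as DLA-DRA shows with 12.51, 11.41 and 8.74 against 12.37, 10.71 and 12.97. Without tissue 6 the median was -0.21.

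Lymphocyte genes were mostly too dim to be compared: 2 of 28 listed T and NK cell genes and 1 of 13 B and plasma cell genes were measured. CCL5, a chemokine of activated T cells, was 11.33 in tissue 5 and 4.35 to 6.72 in the others. Among the genes that failed the filter, the T cell receptor component CD3D was 8.81 in tissue 5 and at most 3.51 elsewhere, and NKG7 of cytotoxic cells was 7.61 there and at most 3.77 elsewhere. JCHAIN, the joining chain of secreted antibodies, was called higher in IBSP-low tissues (9.53, 7.65 and 8.06 against 9.63, 10.98 and 12.55), with 0.10 between the groups and a difference of -2.64. By another probe set the difference was -1.14 and the groups overlapped. Its mean in primary lines was 9.35, while the B cell genes CD79A, CD79B and MS4A1 were at most 2.54 in any tissue.

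The interferon response was the listed group with the most called members. These genes are induced by type I and II interferons and act against viruses. Of 20 listed genes 11 were measured, and 7 were called higher in IBSP-low tissues (MX1, ISG15, MX2, IFI6, OAS2, IFI44L and OAS1) against 2.65% of all genes. None of the 11 was called in the other direction, against 2.06% of all genes. All 11 had the lower mean in IBSP-high tissues, and the median difference was -1.99 log2 units.

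The dynamin-like GTPase MX1 was 6.11, 6.59 and 3.85 in tissues 1, 3 and 6 and 8.53, 8.13 and 10.55 in tissues 2, 4 and 5. Its difference was -3.55 log2 units (11.7-fold lower), with 1.55 between the groups. The ubiquitin-like modifier ISG15 was 6.03, 7.24 and 4.02 against 8.92, 7.66 and 10.75. IFI6, a mitochondrial and endoplasmic reticulum protein, was 4.95, 5.08 and 4.03 against 7.59, 6.60 and 8.79. OAS1 and OAS2 make the oligoadenylate that activates RNase L. OAS1 was 8.56, 8.90 and 7.53 against 9.996, 10.20 and 10.61, and OAS2 was 9.15, 8.51 and 5.92 against 9.76, 10.02 and 10.47. Tissue 6 was the lowest tissue for 9 of the 11 genes, and tissue 5 was the highest for 7 and tissue 4 for 4. The sensor IFIH1, IFI44 and USP18 overlapped between groups, each with its highest level in tissue 4 (10.15, 8.55 and 8.24). MX2 lost its call after quantile normalization and with values under log2 5 set to that level.

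Leaving out any tissue kept 11 of 11 lower means in the IBSP-high group and gave 7 to 10 calls. Medians ran from -2.51 without tissue 1 to -1.73 without tissue 6. Over all genes the share called in this direction was then 2.94% to 8.32%. Leaving out a tissue cannot make separated groups overlap, so keeping these calls was largely fixed in advance. Tissue 5, the highest for 7 of the 11 interferon genes, was also the tissue with the CD3D, CCL5 and MHC class II maxima. Their part in the interferon values was not tested. Without tissue 5 there were 7 calls, against 4.78% of all genes, and the median was -2.01.

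A list of MHC class I genes, assembled after values were seen, gave 5 calls in the IBSP-low direction and 1 in the other among 12 measured, against 2.65% and 2.06% of all genes. The called class I heavy chains were DLA-64 (6.56, 6.01 and 3.97 against 8.65, 7.51 and 10.25) and DLA88, whose means differed by -1.65 while tissues 1 and 4 were both at 11.12. The immunoproteasome subunit PSMB9 was 9.78, 8.06 and 8.15 against 10.15, 10.76 and 11.08, and the peptide transporter TAP1 and its partner TAPBP differed by -1.07 and -1.31. TAP1 fell short of the rule without tissue 4, 5 or 6 (-0.98, -0.87 and -0.90), TAPBP did so without tissue 5 (-0.97) or with values under log2 5 set to that level (-0.15), and DLA88 with arrays centred on their medians. ERAP2, which trims peptides for class I, took the opposite course with 4.60, 6.11 and 7.11 in IBSP-high tissues against 3.24, 2.89 and 3.30 in IBSP-low tissues. Probe sets of DLA genes can bind transcripts of closely related class I genes, so single DLA values are uncertain. The genes TNFSF10, PARP14, DDX60 and SAMD9L, also picked after values were seen, were separated in the direction of MX1 with differences of -2.47 to -3.16.

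**Figure D2:**
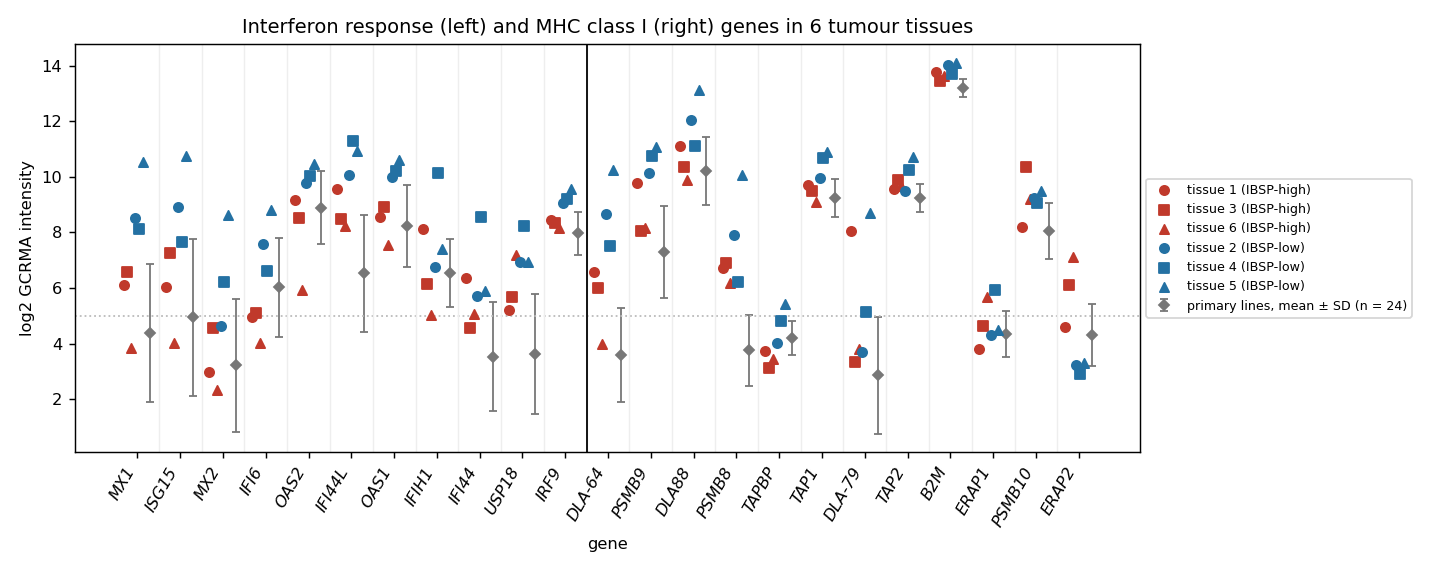
Levels of 11 interferon response genes (left of the line) and 12 MHC class I genes (right) as log2 GCRMA intensity in each tissue, red for IBSP-high and blue for IBSP-low, with the mean and SD of 24 primary lines in grey. MX1, IFI6 and OAS1 have at least 1.10 log2 units between the red and blue points, and ERAP2 is the one gene with all red points above the blue.

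Cell cycle genes had higher means in IBSP-high tissues, and tissue 2 was the low one. Of 15 measured G2/M genes 2 were called higher in IBSP-high tissues and 0 in IBSP-low tissues, against 2.06% and 2.65% of all genes. All 15 had the higher mean there, with a median of 1.36, and tissue 2 was lowest for 15 of 15. CENPF, a kinetochore protein of late cell cycle, was 8.49, 8.55 and 8.43 against 5.79, 7.37 and 7.02. TOP2A, the topoisomerase that untangles replicated DNA, was 11.47, 11.90 and 12.79 against 9.26, 11.34 and 11.39, with 0.08 between the groups and no call without tissue 2 (difference 0.69) or by another probe set. Without tissue 2 the median was 0.35.

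Among 25 measured G1/S and replication genes, a list assembled after values were seen, 6 were called higher in IBSP-high tissues and 0 in IBSP-low tissues, against 2.06% and 2.65% of all genes. CCNE2 and CCNE1 encode E-type cyclins, which drive entry into S phase. CCNE2 was 8.14, 7.47 and 9.95 against 4.41, 6.36 and 5.40, and CCNE1 was 6.56, 10.21 and 7.15 against 4.87, 6.44 and 5.77. MYBL2, a transcription factor of cycling cells, was 8.55, 8.81 and 8.41 against 4.65, 6.56 and 7.49. MCM5, CDC45 and POLD3 were the other called members. Tissue 2 was the lowest for 24 of the 25 genes and tissue 6 the highest for 19, and without tissue 2 the median went from 1.07 to 0.52 with 6 calls.

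**Figure D3:**
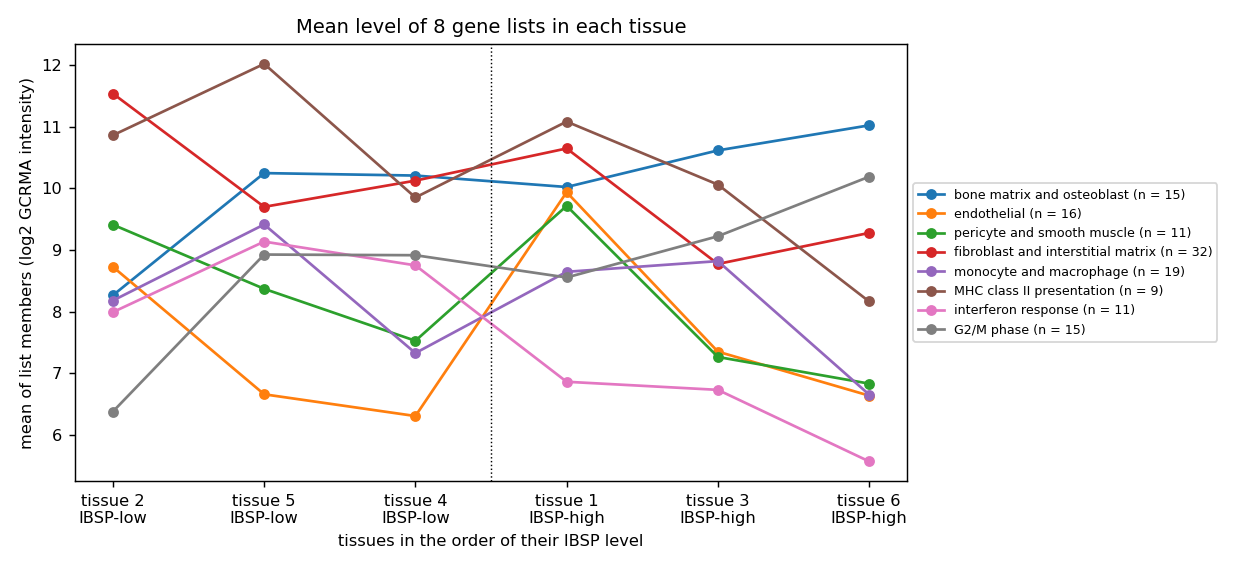
Mean log2 GCRMA intensity over the members of 8 gene lists (vertical axis) in each tissue, ordered from the lowest to the highest IBSP level (horizontal axis). The interferon mean is 7.99 to 9.14 in the IBSP-low tissues and 5.57 to 6.86 in the IBSP-high tissues, the endothelial mean peaks at 9.94 in tissue 1, and tissue 2 has the highest fibroblast mean (11.53) and the lowest G2/M mean (6.38).

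The remaining lists held few called genes. Over all genes 2.06% were called higher in IBSP-high and 2.65% in IBSP-low tissues, so 0 calls in a short list says little. Of 6 measured cartilage genes 0 were called: the cartilage proteoglycan ACAN was 9.32 to 12.09 in all tissues and highest in tissue 4, and COL2A1 was 7.52 and 6.65 in tissues 3 and 6 and 3.57 to 5.12 elsewhere. Adipocyte genes (6 measured), neutrophil and mast cell genes (5), skeletal muscle genes (2) and hypoxia and glycolysis genes (12) gave 0 calls, and 0 of 10 erythroid genes were measured. FABP4 of fat cells was 11.30 in tissue 2 and at most 6.83 elsewhere, and KRT18 of simple epithelia was 9.31 in tissue 2 and at most 3.18 elsewhere. EPCAM, an epithelial adhesion molecule, was called higher in IBSP-low tissues, at 2.67, 2.92 and 3.36 against 6.86, 3.62 and 8.78. Tissue 4 was below log2 5 there, and the call was lost with values under that level set to it. Of 15 heat shock chaperones, a list also assembled after values were seen, 2 were called higher in IBSP-high tissues, against 2.06% of all genes. They were HSP70 (12.48, 12.82 and 11.85 against 9.997, 10.29 and 11.24) and HSPH1.

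**Figure D4:**
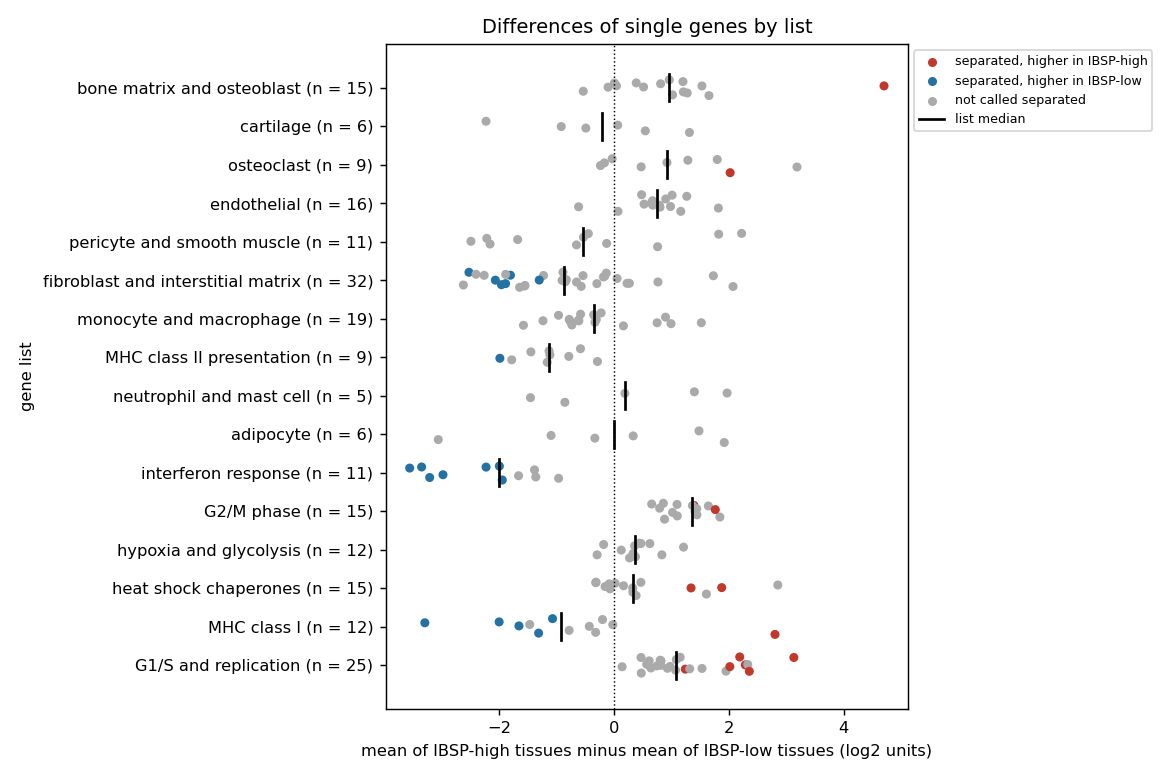
Differences between the group means, IBSP-high minus IBSP-low in log2 units (horizontal axis), for single genes of each list with at least 5 measured members (vertical axis), with the list median as a black bar and separated genes in red or blue. The interferon response median lies at -1.99 and the G2/M median at 1.36, and IBSP at 4.70 is the one separated gene of the bone list.

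The 10 genes with the widest space between groups on the IBSP-high side were SERPINI1, LAMA1, PTGS2, GRIA2, TMEM178A, CA2, ERAP2, WNK4, CHST11 and CCNE2. SERPINI1, neuroserpin, an inhibitor of tissue plasminogen activator, was 9.83, 7.78 and 13.23 in IBSP-high tissues and 4.39, 4.48 and 4.44 in IBSP-low tissues, with 3.30 between the groups. LAMA1, the laminin alpha 1 chain of basement membranes, was 9.43, 7.43 and 9.47 against 2.34, 1.96 and 4.58. Both genes were under log2 5 in all IBSP-low tissues, so their differences of 5.85 and 5.82 rest on values near background there. PTGS2, the inducible cyclooxygenase COX-2, was 9.97, 10.89 and 8.42 against 5.23, 5.72 and 4.61.

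GRIA2, an AMPA glutamate receptor subunit, was 5.72, 4.25 and 8.88 in IBSP-high tissues and between 1.81 and 2.02 in IBSP-low tissues. The kinase WNK4 was 7.68, 7.60 and 6.90 against 3.53, 3.34 and 5.66. CHST11, which sulphates chondroitin, was 7.14, 5.01 and 4.99 against 3.45, 3.78 and 3.51, and TMEM178A, a membrane protein, was 6.68, 5.85 and 8.69 against 4.11, 3.42 and 3.10. With values under log2 5 set to that level, the differences of LAMA1, GRIA2, TMEM178A, ERAP2 and CHST11 were 3.78, 1.53, 2.07, 1.07 and 0.72. At that level GRIA2, ERAP2 and CHST11 were no longer called. A second probe set of GRIA2 was also separated, by a smaller difference of 2.02, and that of TMEM178A by 2.42. Other separated genes, picked after values were seen, included secreted enzymes and growth factors. The interstitial collagenase MMP1 was 12.08, 9.05 and 10.39 against 2.81, 3.45 and 7.97, and stromelysin MMP3 was 10.83, 10.16 and 11.73 against 2.59, 3.34 and 9.95. BMP2, an inducer of bone formation, was 13.59, 11.21 and 10.86 against 10.18, 8.82 and 10.41, and the R-spondin RSPO3, which strengthens WNT signalling, was 9.69, 7.11 and 5.49 against 2.97, 4.81 and 3.87. The lysophospholipase ENPP2 (autotaxin), the transcription factor MEF2C and the transmembrane collagen COL13A1 were separated in the same direction by 2.77, 1.99 and 3.03 log2 units.

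On the IBSP-low side the 10 widest were PON3, WWC1, PTGDS, S100A1, MYO5B, LAPTM4B, MX1, IFI6, DPYS and NMRK1. PON3, a lactonase of the paraoxonase family, was 8.97, 8.60 and 9.55 in IBSP-low tissues and 6.15, 4.19 and 4.97 in IBSP-high tissues, with 2.45 between the groups. LAPTM4B, a lysosomal membrane protein, had the largest difference of these: it was 7.49, 8.66 and 9.23 against 5.76, 1.91 and 2.21. Tissue 1 again lay nearest to the IBSP-low values. PTGDS, which makes prostaglandin D from the product of PTGS2 and PTGS1, was 8.06, 7.97 and 10.83 in IBSP-low tissues against 5.46, 5.94 and 5.48.

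The calcium-binding protein S100A1 was 8.89, 7.11 and 8.61 in IBSP-low tissues against 5.29, 4.48 and 4.16. WWC1 (KIBRA), a scaffold of the Hippo pathway, was 6.45, 6.74 and 7.35 against 4.08, 2.15 and 3.03, and the motor MYO5B was 7.55, 6.04 and 4.90 against 3.16, 2.63 and 2.77. With values under log2 5 set to that level their differences were -1.85 and -1.20, MYO5B was no longer called, and that of LAPTM4B went from -5.16 to -3.21. DPYS of pyrimidine breakdown was 10.19 in tissue 2, 5.96 and 5.93 in tissues 4 and 5, and 3.37 to 4.55 in IBSP-high tissues. NMRK1, a kinase of NAD synthesis, was 8.47, 8.32 and 9.62 against 6.63, 6.12 and 7.06. The matrix protein MATN2 and the receptor EGFR, picked after values were seen, were separated in this direction too. MATN2 was 12.13, 12.12 and 12.68 against 10.92, 5.17 and 7.69, and EGFR was 11.48, 11.25 and 11.27 against 10.55, 7.17 and 7.68.

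**Figure D5:**
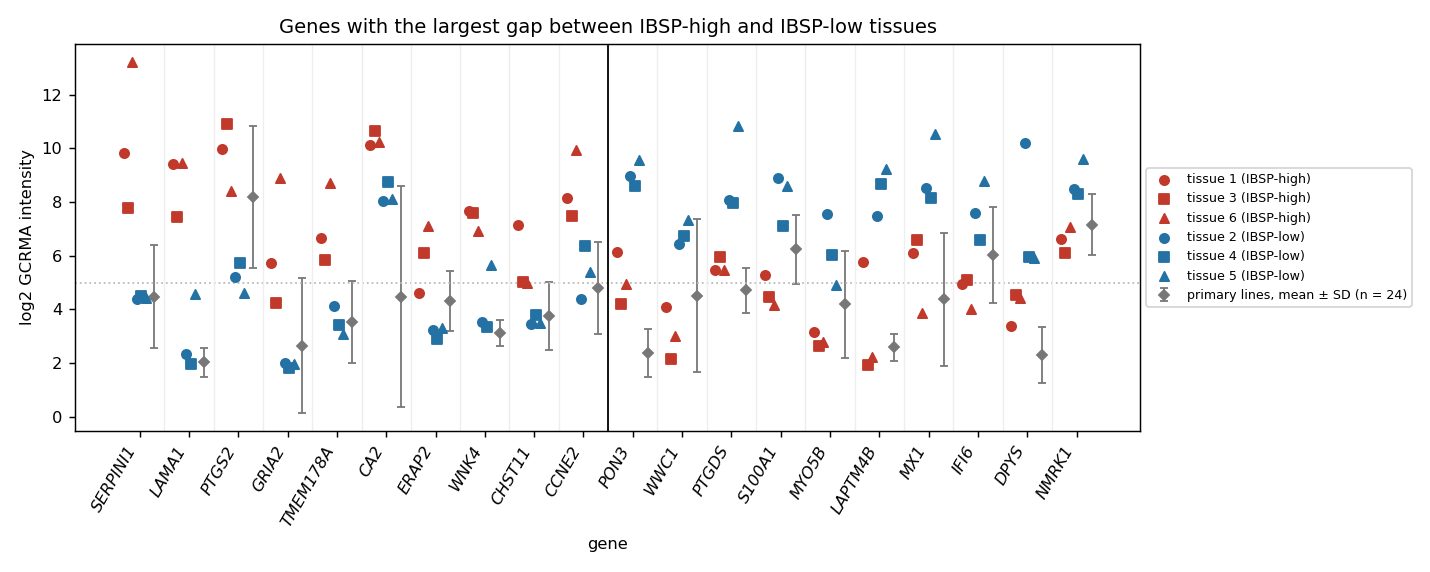
Levels of the 10 genes with the widest space between the groups in each direction, higher in IBSP-high tissues left of the line and higher in IBSP-low tissues right of it, as log2 GCRMA intensity per tissue with the mean and SD of 24 primary lines in grey. SERPINI1 has the widest space at 3.30 log2 units, and tissue 1 (red circles) is the IBSP-high tissue nearest to the blue points for PON3, LAPTM4B and WWC1.

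The label groups of tissues and primary lines did not use the IBSP division, and this comparison was tested with limma over all genes. Tissues had higher levels of 711 genes (9.06%) and primary lines of 437 genes (5.57%) at a Benjamini-Hochberg adjusted p under 0.05 and at least 2-fold. Of the 162 genes higher in IBSP-high tissues, 31 (19.1%) were higher in tissues than in lines, 5 (3.09%) were higher in lines and 126 were not called. Of the 208 genes higher in IBSP-low tissues, 25 were higher in tissues, 31 (14.9%) were higher in lines and 152 were not called. Separated genes were chosen on the same tissue arrays that enter this test, so nothing is read from these shares.

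Several of the genes above were low in the cultured cells. LAMA1 was 2.04 ± 0.54 (SD, n = 24) in primary lines, WNK4 was 3.12 ± 0.50 and LAPTM4B was 2.59 ± 0.50, each with 0 of 24 lines over log2 5. PON3 was 2.37 ± 0.90, with 1 of 24 over that level. These 4 genes passed the filter on dim probe sets only through the tissues, so they had to differ from lines and no test of them is given. LAMA1 and WNK4 would have failed the filter without the IBSP-high tissues. PON3, LAPTM4B and DPYS would have failed it without the IBSP-low tissues. PTGDS was 4.71 ± 0.85 in lines, over log2 5 in 7 of 24, and higher in tissues by 2.58 log2 units (SE 0.55, limma with Benjamini-Hochberg adjustment, adjusted p = 0.000737).

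Other genes were also measured in many lines. PTGS2 was 8.18 ± 2.63 in lines, over log2 5 in 20 of 24, and did not pass the test (difference -0.71, limma adjusted p = 0.692). S100A1 was 6.24 ± 1.28 in lines (limma adjusted p = 0.863), and OAS2 8.88 ± 1.31 (limma adjusted p = 0.932). MX1 was 4.38 ± 2.48 in lines and called higher in tissues (difference 2.91, limma adjusted p = 0.0423). The call of MX1 was lost when tissue 2, 3, 4 or 5 was left out (adjusted p = 0.0922, 0.0608, 0.0905 and 0.155). SERPINI1 (limma adjusted p = 0.0333) lost its call without tissue 1, 3 or 6 (adjusted p = 0.111, 0.0694 and 0.207). CCNE2 (limma adjusted p = 0.0375) lost it without tissue 1, 3, 4 or 6, with adjusted p of 0.0989, 0.0818, 0.0501 and 0.167. CA2 (limma adjusted p = 0.0357) lost it when any tissue other than tissue 2 was left out, with adjusted p from 0.0503 to 0.0808.

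Title prefix 3 held all tissues and only 2 lines, so title prefix and source were largely the same division. Within that prefix PTGDS differed by 3.64 log2 units without passing the test (limma adjusted p = 0.177). There SERPINI1 was -0.44 and CCNE2 was -1.46, both with lines higher, and neither passed the test (limma adjusted p = 0.934 and 0.543).

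The dogs of tissues 5 (IBSP-low) and 6 (IBSP-high) allowed lines to be set beside their tumours, with 1 dog on each side and no test. Among the 162 genes higher in IBSP-high tissues, the line of the dog of tissue 6 was above the line of the dog of tissue 5 for 45 (27.8%). Among the 208 genes higher in IBSP-low tissues it was above for 137 (65.9%). Over all genes the share was 43.5% (3413 of 7849). For this 1 pair of lines the order was thus more often the reverse of that of the tissue groups. The line of the dog of tissue 5 was an average of arrays, and the other was a single array. Cell cycle genes were among the 162, and their part in these shares was not tested. One of them, TOP2A, was 4.05 in the line of the dog of tissue 6 and 12.47 in the other line. CCNE2 was 9.95 in tissue 6 and 5.40 in tissue 5, and 3.18 and 8.25 in the lines of the same dogs. SERPINI1 was 13.23 and 4.44 in these tissues and 4.33 and 6.06 in the lines. IFI6 was 4.03 and 8.79 in the tissues and 6.28 and 4.61 in the lines, and MX1 was 3.85 and 10.55 in the tissues and 3.35 and 3.48 in the lines.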

How the data were processed

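RNA of 34 samples was measured on Affymetrix Canine_2 arrays. The deposited intensity values, 1 per probe set, come from GCRMA, which the authors ran per the submitters' processing notes; the version and settings of it were not given in the sources used here. Their range showed a linear scale, and log2 was taken (floor 1, which altered 0 probe sets). Of 43035 probe sets, 175 controls were removed, and those over log2 5 on at least 3 arrays were kept (18591, of which 14059 carried 1 gene symbol of the platform annotation). For each gene the brightest probe set on average was used, giving 7849 genes. The 2 line arrays of 1 dog were averaged.

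Tissues were divided at log2 11.5 of IBSP. The space between groups is the lowest value of the higher group minus the highest of the lower one. Named genes were the 10 with the widest space in each direction, up to 4 called members of each list, and 41 index genes where measured; genes outside this rule are marked as picked after values were seen. Members and the 18 lists were chosen with earlier results of these data known, and 3 further lists (heat shock chaperones, MHC class I, G1/S and replication) after their values were seen. Primary lines, metastatic lines and tissues shared 1 limma fit (limma 3.58.1, R 4.3.3; lmFit, eBayes, Benjamini-Hochberg). Both procedures were tested on simulated data with independent noise, which checks the code and not how well the rules do in these tissues. Arrays have no read depth, and their number limits precision. The labels give 1 dog per tissue, so spread is between animals. Alternatives were other filters, probe sets and scalings, stricter rules, and leaving out each tissue.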

Additional observations from a re-analysis of the deposited data

Results flagged for a closer look

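Of 63 named genes screened for a tissue standing apart from the other 5, 1 met Dixon's criterion, and chance meets it in about 1 in 20 groups. DLX5, a transcription factor of osteoblasts, was 6.39 in tissue 2, the lowest of the 6 tissues, and 9.39 to 10.69 in the others.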

How the results depend on the processing

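For the named genes' differences between the tissue groups, 728 values under the alternatives moved by less than the spread between tissues and 18 by more. Among called differences 0 changed sign, which was fixed in advance where 1 tissue was left out, since separated groups stay apart. The counts of separated genes, 162 higher in IBSP-high and 208 higher in IBSP-low tissues, ranged from 193 to 647 and from 231 to 653 when 1 tissue was left out, since fewer tissues separate more easily. A minimum space of 1 log2 unit left 15 and 23, a difference of means of at least 2 log2 units left 41 and 60, and counting every kept probe set gave 316 and 379. Medians of the bone, endothelial, fibroblast, macrophage and MHC class II lists moved by less than their spread under each other scaling and filter.

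In limma, the 711 genes higher in tissues became 470 with a filter at log2 7 and 171 within title prefix 3 alone. The 437 higher in lines became 662 when each gene's probe set was picked by its interquartile range, and 80 within title prefix 3. With 1 tissue left out these counts were 629 to 737 and 358 to 441, and with dog as a random block 712 and 441. Of the named tissue differences 774 values kept their call, 30 lost it, 2 gained it and 3 turned: SERPINI1 (-0.44) and CCNE2 (-1.46) within title prefix 3, and COL2A1 (-0.17) with no filter, where another probe set stood for the gene; the cause of the others was not tested. A division by a second IBSP probe set was not run, as the array names 1. No paired analysis was possible because the tissue groups share no dog.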
